A study of Danio rerio with 11 samples.

Results

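Centrosome, kinetochore and spindle genes were followed in early oocytes of wild-type (WT) zebrafish and of zebrafish mutant for znf706, a small zinc finger gene. Members were chosen by a rule on gene names, which was set with earlier results of these data known. The rule took the CENP, CEP, HAUS and Ska families, the Mis12, Mis18 and Ndc80 complexes, and a set of named spindle and centriole genes. Of 74 matching names, 70 reached 1 FPKM (a fragment count scaled by transcript length and library size) in 2 or more of the 8 libraries, out of 13862 genes that passed this filter. The 4 names left out were tacc1, cep126, cep170aa and cep170ab, of which cep170aa reached 2.3 FPKM in WT stage I replicate 1 alone. The members just inside the limit were cep19, with 1 FPKM or more in 3 libraries and at most 1.71, and cenpv, at most 1.70. Of the members, 2, ska3 and cep19, were below 1 FPKM in every stage I library and passed only through stage II libraries, so their stage differences were partly fixed by the filter.

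The mutant fish carried the CRISPR/Cas9 allele tsu7d on both chromosomes (znf706 tsu7d/tsu7d), and their libraries bear the genotype label MZznf706. The 4 groups were WT stage I, mutant stage I, WT stage II and mutant stage II, with 2 libraries each that the series text calls biological replicates. Oocytes were picked by hand, about 600 per library at stage I and 150 at stage II, from digested ovaries of juvenile females 3 months old, and polyadenylated RNA was sequenced. The number of fish pooled per library is not given in the sources used here, and 3 CUT&Tag libraries (1 with control IgG, 2 with an antibody to Znf706) were not analysed here.

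Kinetochores are protein assemblies built on the centromere, where the histone variant CENP-A marks the site. An inner layer binds the centromere and an outer layer, with the Ndc80 complex at its core, grips spindle microtubules. Centrosomes, made of a centriole pair in a protein matrix, organise microtubules in most animal cells, and the augmin complex adds new microtubules along existing ones. Growing oocytes are held in the first meiotic prophase and assemble no spindle until maturation, centrioles are lost during oogenesis in most animals, and the egg stores maternal mRNA and protein for its meiotic divisions and for the cleavage divisions of the embryo.

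Summed FPKM ran from 653659 to 899582 per library, and 11992 to 12691 genes reached 1 FPKM. FPKM do not show read depth, so the depth behind each value is unknown. All 9 oocyte markers in the table were expressed, with summed levels of 2986 to 5275 FPKM, whereas the 8 granulosa cell markers summed to 1.16 to 6.16 FPKM and fshr was at 0 throughout. At stage II the oocyte sum was 4029 and 4003 FPKM in WT and 3212 and 2986 in the mutant. The granulosa sum there was 6.16 and 4.86 against 1.16 and 3.35. Of the oocyte markers 3 were higher and 1 lower in mutant stage I, and 3 higher and 3 lower in mutant stage II. The 9 leukocyte markers summed to 3.14 and 3.45 FPKM in WT stage I, 13.6 and 12 in mutant stage I, 1.28 and 3.00 in WT stage II and 8.63 and 12.3 in mutant stage II, with mpeg1.1 at 0. Of the 9, the 4 that passed the filter (cd74a, cd74b, coro1a and cd4-1) were higher in the mutant at both stages. The others were at most 0.599 FPKM in any library. Among those, laptm5 went the other way at stage II, at 0.314 and 0.599 FPKM in WT and 0 in both mutant libraries. The part of these markers in the results was not tested. Red blood cell markers summed to 4.51 and 3.24 FPKM in WT stage I, 4.17 and 5.74 in mutant stage I, 4.02 and 4.07 in WT stage II and 8.80 and 9.38 in mutant stage II. Stromal and endothelial markers summed to 3.75 and 2.81 FPKM in WT stage I, 7.38 and 8.35 in mutant stage I, 5.72 and 6.14 in WT stage II and 4.82 and 5.64 in mutant stage II. The 5 theca and steroid cell markers summed to 269.8 and 250.7 FPKM in WT stage I, 97.2 and 105 in mutant stage I, 87.6 and 117.7 in WT stage II and 352.2 and 330.2 in mutant stage II, nearly all of it from cyp11a1 and cyp17a1, while star was at most 0.205. The sum moved with genotype in opposite directions at the 2 stages, as cyp11a1 did but cyp17a1 did not. The level of cyp11a1 was 220.9 and 202.6 FPKM in WT stage I against 0.152 and 0.0626 in the mutant, and 53.5 and 82.4 against 278.3 and 260.5 at stage II. That of cyp17a1 was higher in the mutant at both stages. It was 47.95 and 47.6 FPKM in WT stage I against 96.2 and 104.6 in the mutant, and 34.0 and 34.9 against 73.3 and 69.2 at stage II. The part of these markers in the results was not tested either. Of 8 genes used as proliferation markers, all expressed here, 5 were higher and 2 lower in mutant stage I, and 3 higher and 2 lower in mutant stage II. The level of znf706 was 231.6 and 237.8 FPKM in WT stage I, 181.1 and 146.7 in mutant stage I, 157.5 and 142.7 in WT stage II, and 128.8 and 141.5 in mutant stage II. It was lower in mutant stage I (log2 fold change -0.52 ± 0.11, SE; adjusted p = 0.0056) but not past the threshold at stage II (-0.15 ± 0.11, adjusted p = 0.29). What the allele does to the transcript is not given in the sources used here, so this level does not check the labels.

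Most members were well expressed. Of the 70, 62 reached 1 FPKM in every library, 6 had a mean over the 8 libraries above 100 FPKM, 44 lay between 10 and 100, and 20 lay below 10. The most abundant was haus6, an augmin subunit, at a mean of 477.4 FPKM, followed by tpx2, a spindle assembly factor, at 383.1. By role, the median of the mean levels was 76.8 FPKM for 6 spindle assembly genes, 65.3 for 6 outer kinetochore genes, 60.5 for 6 augmin genes and 37.9 for 11 inner kinetochore genes. It was 16.3 FPKM for 14 centriole duplication genes and 4.28 for 12 genes of centriole appendages and cilia. Per length, the medians of outer kinetochore and spindle members were thus above those of the centriole groups. Single genes overlapped: centriole duplication means reached 72.15 FPKM, while the lowest were 25.31 in the outer kinetochore and 10.9 in spindle assembly. Together the members made up 0.385 and 0.365% of summed FPKM in WT stage I, 0.442 and 0.431% in mutant stage I, 0.489 and 0.497% in WT stage II, and 0.507 and 0.512% in mutant stage II. The genotype gap in this share rested on haus6. Without it the share was 0.330 and 0.309% in WT stage I against 0.320 and 0.326% in mutant stage I, and 0.468 and 0.475% in WT stage II against 0.462 and 0.470% in mutant stage II, so the genotypes overlapped at both stages. In bulk RNA, fewer cells of a type and less RNA per cell cannot be told apart.

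The first question was how these genes differed between mutant and WT at stage I, the primary growth stage. In the mutant 5 of 6 outer kinetochore genes were lower, 4 of 6 spindle assembly genes were higher, and of 6 augmin genes 2 were higher and 3 lower. With limma's moderated test on log2(FPKM + 1) and Benjamini-Hochberg adjustment over all 13862 genes, 34 of 70 members (48.6%) passed an adjusted p of 0.05, 19 higher and 15 lower, where 45.3% of all genes passed, 18.4% higher and 26.9% lower. The share called was thus close to that of all genes. The split was 24 higher and 14 lower with quantile normalization and 25 and 13 with median-of-ratios scaling. Of all genes called, 40.6% were higher in the main fit, 49.2% with quantile normalization and 51.2% with median-of-ratios scaling. The median log2 fold change of the members was 0.01, against -0.08 over all genes. All fold changes in the text are on this log2(FPKM + 1) scale, which understates changes of low genes, and errors are SE from the fit, with 2 libraries per group.

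At stage II, the cortical alveolus stage, 32 of 70 members (45.7%) passed between mutant and WT, 17 higher and 15 lower, where 44.6% of all genes passed, 25.4% higher and 19.2% lower. The median log2 fold change of the members was -0.06, against 0.07 over all genes. The split between directions depended on scaling: it was 13 higher and 20 lower with median-of-ratios scaling. Of all genes called at this stage, 57.0% were higher in the main fit and 47.35% with median-of-ratios scaling. Without WT stage II replicate 1, 17 members passed, and without mutant stage II replicate 1, 19 did. The share of all genes that passed also fell without either of these libraries. The 2 genotype comparisons share no library, but the fit gives each gene 1 estimate of the spread from all 8 libraries. Calls at the 2 stages are thus not independent. Of the members 19 passed at both stages, 9 higher at both and 6 lower at both, and 4 (dlgap5, ska2, cenpe and tpx2) had opposite directions. The 15 with 1 direction were 44.1% of the stage I calls and 46.9% of the stage II calls. Over all genes the same shares were 37.9% and 38.5%. Of 3226 genes that passed at both stages, 847 had opposite directions. Whether the members differ from all genes in these shares was not tested. Those higher at both stages included cenpt, cep131, cep85, cep85l, ckap5, haus6, sass6 and tacc3, and those lower at both were cep44, cep76, haus1, haus4, plk4 and spc24. Among them cep85 had small effects (0.33 ± 0.10 and 0.32 ± 0.10) whose calls were lost in 9 alternatives at each stage, including without any 1 of 6 libraries at stage I and any 1 of 5 at stage II (adjusted p up to 0.15 and 0.20). The calls of cep131 (0.50 ± 0.15 and 0.53 ± 0.15) were lost in 5 alternatives at each stage: at stage I without WT stage I replicate 1 (adjusted p = 0.058) or 2 (0.094) or mutant stage I replicate 2 (0.15), and at stage II without WT stage II replicate 1 (0.098) or mutant stage II replicate 1 (0.077) or 2 (0.092). The stage I rise of cep85l (0.47 ± 0.12) did not pass with mutant stage I replicate 2 left out (adjusted p = 0.072).

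In the test of the difference between the stage I and stage II effects, 22 members (31.4%) passed where 36.4% of all genes did, 23.3% with a higher and 13.0% with a lower effect at stage II. Of the 22, 11 had a higher and 11 a lower effect at stage II. This split became 7 and 12 with quantile normalization and 7 and 17 with median-of-ratios scaling. Over all genes, 64.2% of the calls in this test were higher in the main fit. That share was 52.5% with quantile normalization and 47.1% with median-of-ratios scaling.

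**Figure D1:**
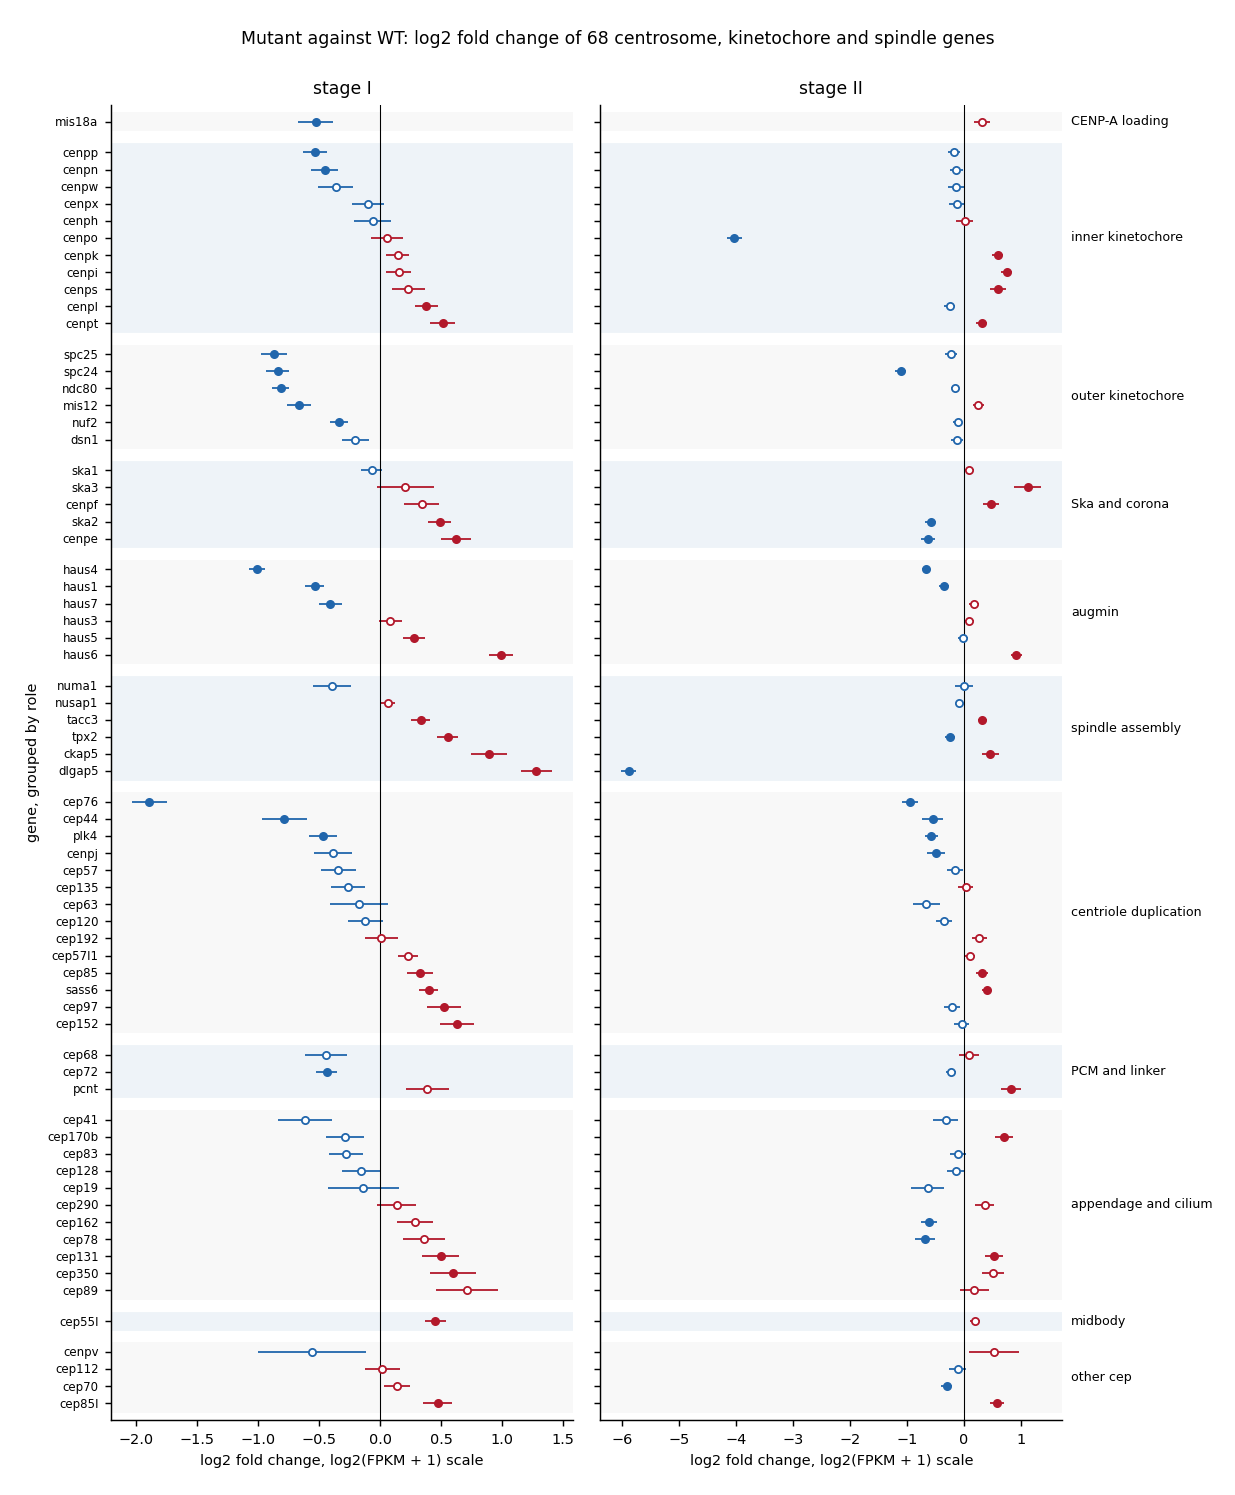
Log2 fold change on the log2(FPKM + 1) scale (x axis) of 68 of the 70 members (y axis, grouped by role and sorted by the stage I value), mutant against WT at stage I (left) and stage II (right, with a wider x axis). Points are estimates from 2 libraries per group, bars are ± 1 SE, red is above and blue below 0, and filled points passed adjusted p of 0.05: 5 of 6 outer kinetochore genes lie left of 0 with filled points at stage I and 1 does at stage II.

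Of 6 outer kinetochore genes 5 were lower in mutant stage I, where 26.9% of all genes were lower, and the median log2 fold change of the 6 was -0.74. The Ndc80 complex has 4 subunits, ndc80 and nuf2 at the microtubule end and spc24 and spc25 at the centromere end. The level of ndc80 was 85.6 and 79.2 FPKM in WT stage I and 44.5 and 48.3 in the mutant, and that of spc25 was 98.1 and 100.0 against 59.5 and 48.4. The level of spc24 was 85.6 and 87.1 FPKM in WT and 50.2 and 45.6 in the mutant. For each of these 3 subunits both mutant libraries lay below both WT libraries, and the mutant mean was 0.545 to 0.563 of the WT mean. Over all genes, the libraries of these 2 groups did not overlap for 72.8%. Log2 fold changes were -0.82 ± 0.07 for ndc80 (adjusted p = 0.00010), -0.87 ± 0.11 for spc25 (adjusted p = 0.00046) and -0.84 ± 0.10 for spc24 (adjusted p = 0.00034). The fourth subunit, nuf2, differed less, with 139.2 and 140.2 FPKM in WT and 117.0 and 104.3 in the mutant (-0.34 ± 0.08, adjusted p = 0.0084). After median-of-ratios scaling, which divides each library by its median ratio to a common reference, nuf2 no longer passed (-0.23, adjusted p = 0.065). In the Mis12 complex, which links Ndc80 to the inner kinetochore, mis12 was at 33.1 and 28.2 FPKM in WT and 19.0 and 18.8 in the mutant (-0.66 ± 0.10, adjusted p = 0.0012). Its partner dsn1 did not pass (-0.20 ± 0.11, adjusted p = 0.18). On the RefSeq assembly GRCz12tu ndc80 overlaps a long noncoding RNA, and whether counting used strand is not given in the sources used here.

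At stage II the same 6 genes looked different. Only spc24 passed, at 86.4 and 72.4 FPKM in WT and 35.8 and 36.5 in the mutant, and its log2 fold change of -1.11 ± 0.10 (adjusted p = 0.00010) kept its call in every alternative run. The level of ndc80 was 105.1 and 103.7 FPKM in WT stage II and 93.4 and 94.5 in the mutant, a log2 difference of -0.15 ± 0.07 (adjusted p = 0.12). The level of mis12 was 24.2 and 22.9 FPKM in WT and 27.5 and 28.9 in the mutant (0.25 ± 0.10, adjusted p = 0.071). The genotype effect itself differed between stages for ndc80 (log2 difference of effects, stage II minus stage I, 0.66 ± 0.10, adjusted p = 0.0023), for mis12 (0.92 ± 0.14, adjusted p = 0.0022) and for spc25 (0.64 ± 0.15, adjusted p = 0.013). For spc25 this call was lost with quantile normalization (0.42, adjusted p = 0.061) and with median-of-ratios scaling (0.44, adjusted p = 0.081). The effect on spc24 did not differ between stages past the threshold (-0.27 ± 0.14, adjusted p = 0.16).

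**Figure D2:**
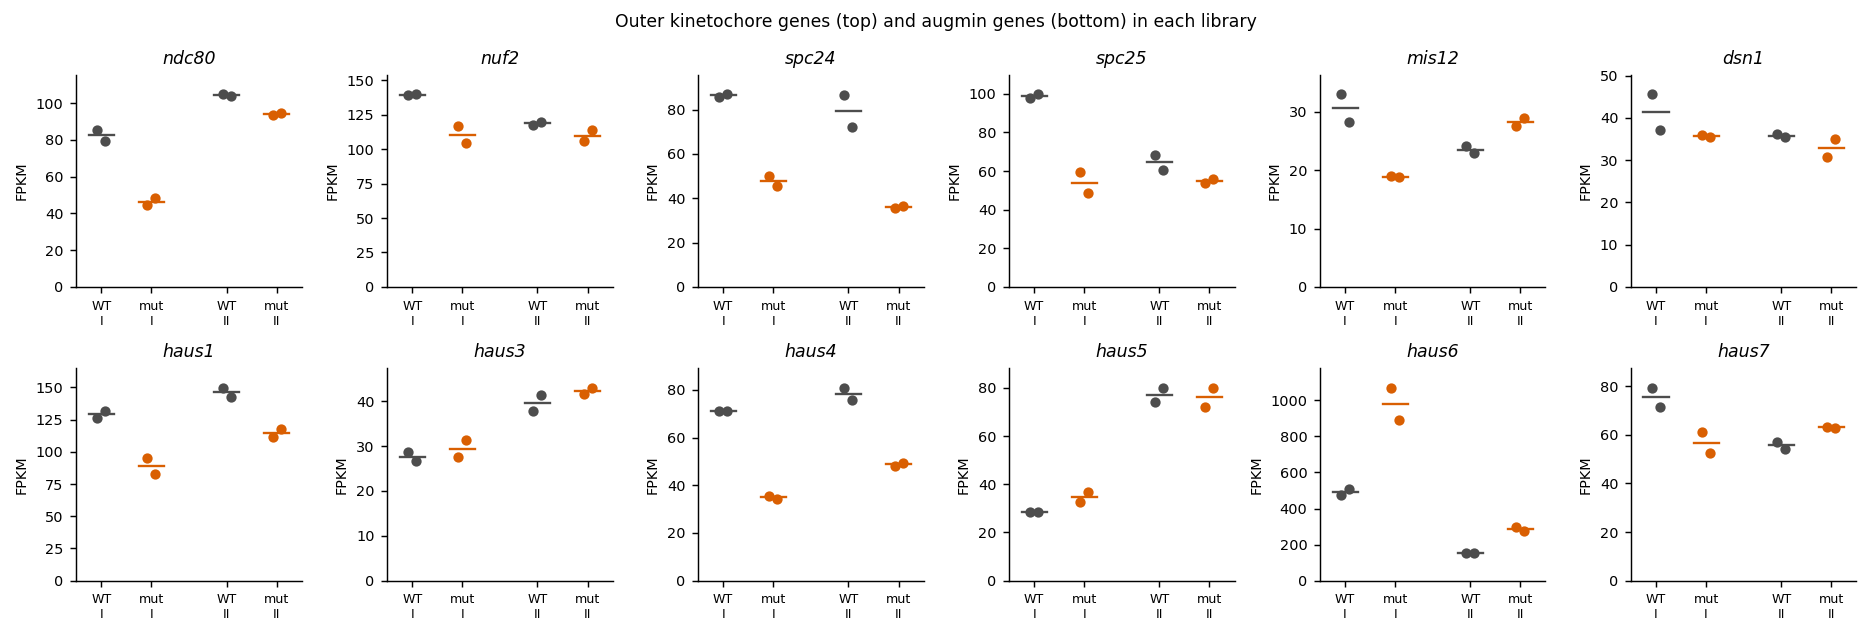
FPKM (y axis, from 0) of 6 outer kinetochore genes (top) and 6 augmin genes (bottom) in each library, by group (x axis; WT grey, mutant orange, stages I and II). Points are the 2 libraries of a group and lines are group means: ndc80 falls to 44.5 and 48.3 FPKM in mutant stage I but not in mutant stage II, while spc24 and haus4 are below WT at both stages and haus6 is above WT at both.

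Among kinetochore genes outside the name rule, 5 of 8 were also lower in mutant stage I, where 26.9% of all genes were lower. They were nsl1 (-0.82 ± 0.13), a Mis12 complex subunit, spdl1 (-0.87 ± 0.12), which brings dynein to kinetochores, zwilch (-0.58 ± 0.08) and zw10 (-0.49 ± 0.07) of the RZZ complex, and bod1 (-0.48 ± 0.08). In the other direction knl1, the scaffold that binds the Mis12 complex, was higher (0.61 ± 0.10, adjusted p = 0.0021), and kntc1, the remaining RZZ gene, was at 0.21 ± 0.11 (adjusted p = 0.15). At stage II 1 of the 8 was lower, zwilch (-0.47 ± 0.08), and 1 was higher, kntc1 (0.32 ± 0.11, adjusted p = 0.039).

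The inner kinetochore, whose subunits form the constitutive centromere-associated network, did not share this direction. At stage I 2 of 11 genes were higher and 2 lower in the mutant (36.4% called), where 45.3% of all genes passed, 18.4% higher and 26.9% lower. The higher genes were cenpt, a centromere-binding subunit that recruits Ndc80 (0.51 ± 0.10, adjusted p = 0.0047), and cenpl (0.38 ± 0.09). The lower genes were cenpp (-0.54 ± 0.10, adjusted p = 0.0033) and cenpn (-0.45 ± 0.11). The call of cenpl was lost without WT stage I replicate 2 (adjusted p = 0.061) or mutant stage I replicate 1 (adjusted p = 0.067), and that of cenpn without WT stage I replicate 2 (0.056) or mutant stage I replicate 2 (0.065), as well as under both other scalings.

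At stage II, cenpo, ENSDARG00000075619, stood apart from its complex. It was at 9.0 and 9.2 FPKM in WT stage I, 9.28 and 9.76 in mutant stage I and 14.6 and 16.2 in WT stage II, and was listed at 0 in both mutant stage II libraries. Mutant and WT thus had close values at stage I (log2 difference 0.06 ± 0.13, adjusted p = 0.75), and the stage II difference passed (adjusted p = 8.2e-07), with no fold given against a group listed at 0. Its partner cenpp, which forms a dimer with it, was at 27.2 and 24.7 FPKM in WT stage II and 22.6 and 23.1 in the mutant (-0.17 ± 0.10, adjusted p = 0.18). On GRCz12tu cenpo overlaps slc5a6b, a transporter gene which was at 19.3 and 19.4 FPKM in WT stage II and 13.0 and 13.6 in mutant stage II. It was thus also lower in the mutant (-0.51, adjusted p = 0.014), but not at 0.

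Of the other inner kinetochore genes, 4 were higher in mutant stage II. With cenpo, 45.5% of the 11 passed at this stage, where 44.6% of all genes did. The level of cenpi was 29.7 and 32.7 FPKM in WT and 53.5 and 52.7 in the mutant (0.75 ± 0.10, adjusted p = 0.00081), and that of cenpk was 48.2 and 41.2 against 64.8 and 70.6 (0.59 ± 0.09, adjusted p = 0.0019). Both belong to the CENP-H, I, K subcomplex, whose other gene here, cenph, was at 21.9 and 22.3 FPKM in WT and 21.6 and 23.0 in the mutant (0.01 ± 0.15). The histone-fold gene cenps was at 13.5 and 13.8 against 19.3 and 23.1 FPKM (0.60 ± 0.14, adjusted p = 0.010), a call lost without WT stage II replicate 1 (adjusted p = 0.052) or mutant stage II replicate 2 (0.066). The call of cenpt at stage II (0.31 ± 0.10, adjusted p = 0.039) was lost in 11 alternatives, including without WT stage II replicate 1 (0.17, adjusted p = 0.20) and without mutant stage II replicate 1 (0.14) or 2 (0.11). The gene mis18a, whose product takes part in loading CENP-A, was lower in the mutant at stage I (-0.53 ± 0.14), a call lost without WT stage I replicate 1 (-0.37, adjusted p = 0.11), mutant stage I replicate 1 (0.062) or mutant stage I replicate 2 (0.089), and was not past the threshold at stage II (0.31 ± 0.14, adjusted p = 0.11).

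The Ska complex couples Ndc80 to moving microtubule ends. Its gene ska2 was at 68.6 and 61.8 FPKM in WT stage I, 100.1 and 84.3 in mutant stage I, 80.8 and 79.5 in WT stage II and 52.6 and 53.6 in mutant stage II. It was above WT at stage I (0.49 ± 0.10, adjusted p = 0.0042) and below WT at stage II (-0.59 ± 0.10, adjusted p = 0.0020), and the effects differed between stages by -1.07 ± 0.13 (adjusted p = 0.00090). The kinesin gene cenpe, whose product moves chromosomes to the spindle equator, had the same 2 directions: 8.30 and 9.69 FPKM in WT stage I, 13.9 and 14.8 in the mutant, 70.4 and 77.2 in WT stage II and 42.6 and 52.6 in the mutant. Its log2 fold changes were 0.62 ± 0.12 (adjusted p = 0.0048) and -0.63 ± 0.12 (adjusted p = 0.0051), with a difference of effects of -1.25 ± 0.18 (adjusted p = 0.0015). By contrast ska1 did not pass at either stage (-0.07 ± 0.09 and 0.09 ± 0.09).

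The remaining Ska gene, ska3, ENSDARG00000069917, was near 0 at stage I, at 0.192 and 0.0363 FPKM in WT and 0.499 and 0.0989 in the mutant. At stage II it was at 8.98 and 12.5 FPKM in WT and 21.1 and 27.9 in the mutant. All stage II libraries lay above all stage I libraries, which was partly fixed by the filter, as given above. The mutant was above WT at stage II (1.12 ± 0.24, adjusted p = 0.0067), a call lost with a pseudocount of 0.1 (adjusted p = 0.13). The corona gene cenpf was low in every library, at 2.06 to 5.20 FPKM, and its stage II call (0.48 ± 0.14) was lost on leaving out any 1 stage II library (adjusted p of 0.074 to 0.13).

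**Figure D3:**
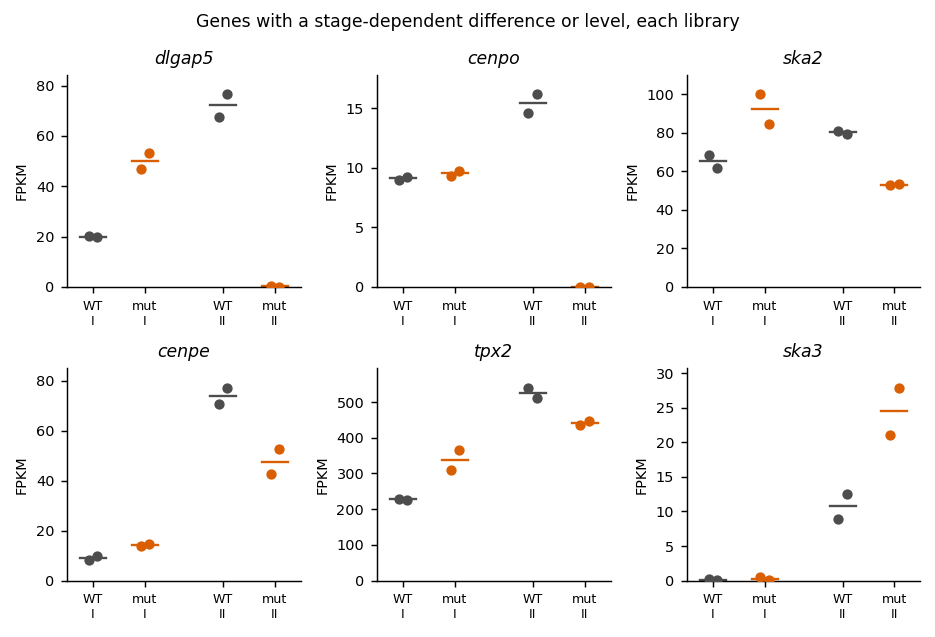
FPKM (y axis, from 0) of 6 genes in each library, by group (x axis; WT grey, mutant orange, stages I and II). Points are the 2 libraries of a group and lines are group means: dlgap5, ska2, cenpe and tpx2 are above WT in mutant stage I and below WT in mutant stage II, cenpo is at 0 in mutant stage II, and ska3 is below 0.5 FPKM in all stage I libraries.

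Spindle assembly genes were mostly higher in mutant stage I, 4 of 6 where 18.4% of all genes were higher, with a median log2 fold change of 0.44. The largest rise among the members was that of dlgap5, ENSDARG00000045167, which encodes a protein that stabilises kinetochore microtubules. Its level was 20.3 and 19.7 FPKM in WT stage I and 46.9 and 53.4 in mutant stage I (1.28 ± 0.13, adjusted p = 0.00018). In stage II libraries the level was 67.7 and 76.7 FPKM in WT but 0.352 and 0.128 in the mutant. The stage II difference of -5.89 ± 0.13 (adjusted p = 1.2e-07) was the largest fall on the log2(FPKM + 1) scale, which ranks it against the 0 of cenpo only through the pseudocount, and the effects differed between stages by -7.17 ± 0.18 (adjusted p = 2.7e-07). This gene overlaps rsph10b on GRCz12tu, which was also higher in mutant stage I (5.19 and 4.41 FPKM against 0.508 and 0.588 in WT). At stage II rsph10b was at 0.182 and 0.428 FPKM in WT and listed at 0 in both mutant libraries, and the difference did not pass (adjusted p = 0.082).

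The next genes act together at spindle poles and microtubule ends. The level of tpx2, which activates Aurora A kinase and promotes microtubule formation, was 229.7 and 226.5 FPKM in WT stage I and 309.3 and 364.4 in the mutant (0.56 ± 0.09, adjusted p = 0.0015), and 540.3 and 510.6 in WT stage II against 436.1 and 447.9 in the mutant. Its stage II call (-0.25 ± 0.09, adjusted p = 0.048) was lost in 11 alternatives, among them quantile normalization (-0.10, adjusted p = 0.35) and leaving out any 1 stage II library (0.084 to 0.19). The difference of its effects between stages passed (-0.80 ± 0.12, adjusted p = 0.0022). The level of ckap5, a microtubule polymerase gene, was 29.1 and 26.1 FPKM in WT stage I and 50.2 and 54.2 in the mutant (0.89 ± 0.15, adjusted p = 0.0019). At stage II ckap5 was also higher (0.46 ± 0.15, adjusted p = 0.034), but not without WT stage II replicate 1 (0.23, adjusted p = 0.15), mutant stage II replicate 1 (0.13) or mutant stage II replicate 2 (0.082). Its partner tacc3 was higher at both stages (0.33 ± 0.08 and 0.33 ± 0.08), at 209.1 and 183.3 against 251.0 and 242.6 FPKM at stage I, and its stage II call was lost without WT stage II replicate 1 (adjusted p = 0.060) or mutant stage II replicate 1 (0.065). Neither numa1, a spindle pole gene, nor nusap1 passed at either stage.

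Augmin subunits did not move together. The gene haus6, ENSDARG00000101652, was at 474 and 508 FPKM in WT stage I and 1071 and 891 in mutant stage I, and at 151 and 151 in WT stage II and 296 and 278 in mutant stage II. Mutant means were 2.0 and 1.9 times the WT means at stages I and II, with log2 fold changes of 0.99 ± 0.10 (adjusted p = 0.00015) and 0.92 ± 0.10 (adjusted p = 0.00025). The opposite was seen for haus4, ENSDARG00000016594, at 71.1 and 71.4 FPKM in WT stage I against 35.6 and 34.2, and 81.0 and 75.9 in WT stage II against 48.2 and 49.3. Its log2 fold changes were -1.01 ± 0.07 (adjusted p = 2.7e-05) and -0.67 ± 0.07 (adjusted p = 0.00023), and with haus6 it kept its call at both stages in every alternative. On GRCz12tu haus6 overlaps a noncoding RNA, and haus4 overlaps rabepk, which was also lower in mutant stage I (adjusted p = 0.033) but was at most 5.41 FPKM in any library.

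Other augmin genes differed less. The level of haus1 was 127 and 132 FPKM in WT stage I and 94.9 and 83.0 in the mutant (-0.54 ± 0.08, adjusted p = 0.0013). It was also lower at stage II (-0.35 ± 0.08), a call lost without WT stage II replicate 1 (adjusted p = 0.058) or mutant stage II replicate 1 (0.065). For haus7 the stage I difference (-0.41 ± 0.09) was lost without WT stage I replicate 1 (adjusted p = 0.056) or mutant stage I replicate 2 (0.052). For haus5 it was small (0.28 ± 0.09, adjusted p = 0.039) and lost in 6 alternatives, among them without WT stage I replicate 1 (adjusted p = 0.12), WT stage I replicate 2 (0.098) or mutant stage I replicate 2 (0.19), and haus3 did not pass. At stage II 1 of 6 augmin genes was higher and 2 were lower, where 25.4% of all genes were higher and 19.2% lower.

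Centriole duplication genes went in both directions. At stage I 4 of 14 were higher and 3 lower (50% called), and at stage II 2 were higher and 4 lower (42.9% called). These shares were close to the 45.3% and 44.6% of all genes that passed. The largest fall at stage I was that of cep76, ENSDARG00000058319, which in human cells restrains reduplication of centrioles, at 17.3 and 13.7 FPKM in WT and 3.15 and 3.72 in the mutant (-1.89 ± 0.14, adjusted p = 4.4e-05). At stage II cep76 was at 19.0 and 19.6 FPKM in WT and 9.62 and 9.41 in the mutant (-0.95 ± 0.14, adjusted p = 0.0014), and the smaller size of this effect passed the test of the difference (0.94 ± 0.20, adjusted p = 0.0089). The kinase gene plk4, which starts duplication, was lower at both stages, at 7.29 and 6.37 against 4.57 and 4.74 FPKM and at 28.7 and 31.5 against 20.2 and 19.6. Its log2 fold changes were -0.47 ± 0.11 and -0.57 ± 0.11 (adjusted p = 0.012 and 0.0054), the first lost without WT stage I replicate 1 (adjusted p = 0.052) or mutant stage I replicate 1 (0.054). The cartwheel gene sass6, whose product forms the core of a new centriole, was higher at both stages by 0.40 ± 0.08 (adjusted p = 0.0050 and 0.0054), at 42.6 and 38.0 against 51.4 and 55.4 FPKM at stage I.

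Of the scaffolds that place Plk4, cep152 was higher at stage I (0.63 ± 0.14, adjusted p = 0.0076), which did not pass with mutant stage I replicate 2 left out (0.57, adjusted p = 0.053), and cep192 did not pass at either stage. The centriole gene cep44 was lower at stage I, at 5.78 and 5.83 against 3.12 and 2.79 FPKM (-0.78 ± 0.18), which did not pass with mutant stage I replicate 2 left out (adjusted p = 0.063). Its stage II call (-0.55 ± 0.18, adjusted p = 0.042) was lost without any 1 of 6 libraries, with the smallest effects without WT stage II replicate 1 (-0.38) and mutant stage II replicate 1 (-0.37). The stage I rise of cep97, which helps cap centrioles (0.53 ± 0.14), was lost without WT stage I replicate 1 (0.38, adjusted p = 0.11) or mutant stage I replicate 2 (0.45, adjusted p = 0.10).

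Beyond the centriole core, pcnt, which encodes the pericentrin scaffold of the pericentriolar matrix, was at 4.13 and 5.20 FPKM in WT stage II and 9.02 and 8.96 in the mutant (0.82 ± 0.17, adjusted p = 0.0068). Among 12 appendage and cilium genes, 2 (16.7%) passed at stage I and 5 (41.7%) at stage II, where 45.3% and 44.6% of all genes did. The stage II rise of cep170b (0.70 ± 0.15) and the falls of cep78 (-0.68 ± 0.17) and cep162 (-0.62 ± 0.15) were each lost without 1 or more libraries. For cep170b these were WT stage II replicate 1 (adjusted p = 0.052) and mutant stage II replicate 2 (0.052). For cep78 they were WT stage II replicate 1 (0.067) and mutant stage II replicate 1 (0.091), and for cep162 WT stage II replicate 2 (0.057) and mutant stage II replicate 2 (0.064). The stage I rise of cep350 (0.60 ± 0.19, adjusted p = 0.036) was lost in 8 alternatives, with values of 0.45 without WT stage I replicate 1 and 0.34 without mutant stage I replicate 2. The midbody gene cep55l was higher at stage I, at 23.5 and 23.3 against 30.2 and 34.8 FPKM (0.45 ± 0.09, adjusted p = 0.0047).

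The second question was how the genes changed from stage I to stage II. In WT, genes of centriole duplication, centriole appendages and spindle assembly mostly rose and several inner and outer kinetochore genes fell. Of the 70 members, 51 (72.9%) passed, 40 higher and 11 lower at stage II, where 60.3% of all genes passed, 38.1% higher and 22.2% lower. The median log2 fold change of the members was 0.43 against 0.15 over all genes. In the mutant 52 members (74.3%) passed, 41 higher and 11 lower, where 66.0% of all genes passed, 47.3% higher and 18.7% lower, with a median of 0.49 against 0.32. Median-of-ratios scaling brought the all-gene medians to -0.02 in both genotypes and turned the splits to 34 higher and 19 lower in WT and 27 and 22 in the mutant. With quantile normalization the mutant split was 31 and 16. Over all genes, rises went from 63.2% to 49.3% of calls in WT with median-of-ratios scaling. In the mutant they went from 71.6% to 47.9%, and to 56.1% with quantile normalization. In both genotypes 35 members rose and 4 fell, and 4 moved in opposite directions. The same overlap was not computed over all genes, so these counts are not read as particular to the members.

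**Figure D4:**
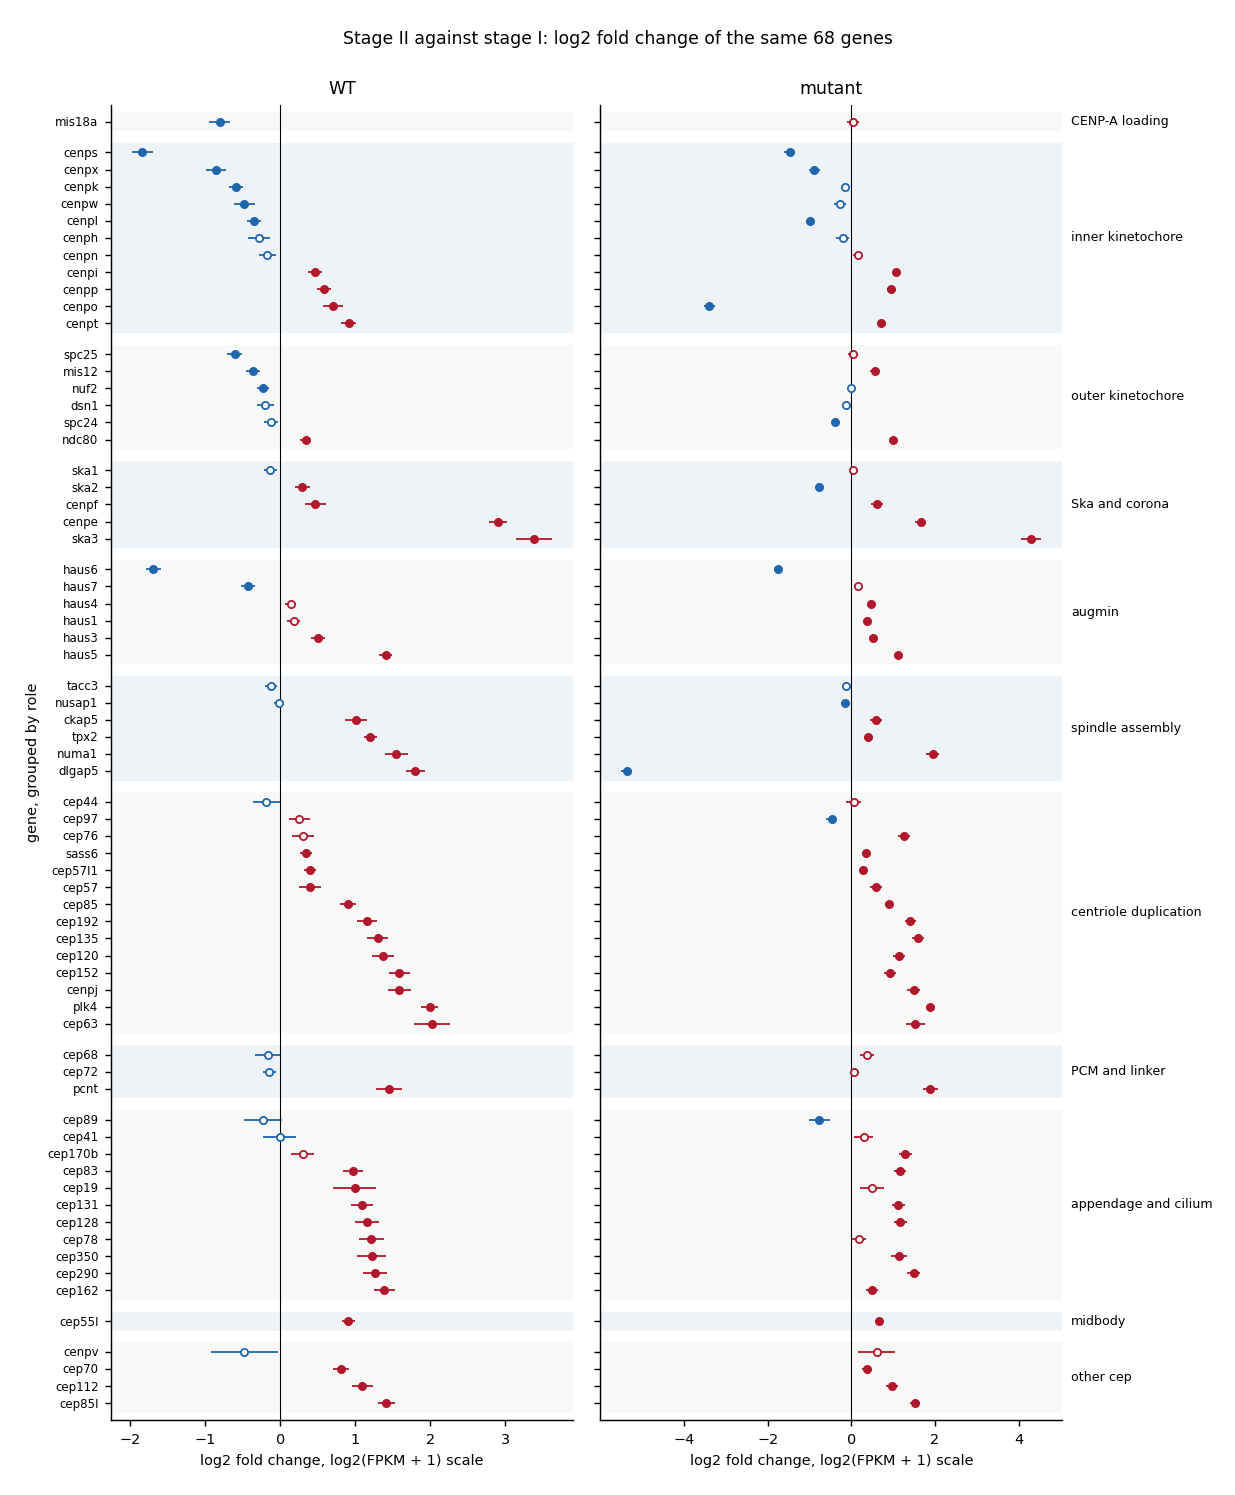
Log2 fold change on the log2(FPKM + 1) scale (x axis) of 68 of the 70 members (y axis, grouped by role and sorted by the WT value), stage II against stage I in WT (left) and in the mutant (right, with a wider x axis). Points are estimates of the main fit from 2 libraries per group, bars are ± 1 SE, red is above and blue below 0, and filled points passed adjusted p of 0.05: 11 of 14 centriole duplication genes rose in WT and 12 in the mutant, some of them not under other scalings, while dlgap5 and cenpo rose in WT and fell in the mutant.

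Among centriole duplication genes 11 of 14 rose in WT, and 12 rose and 1, cep97, fell in the mutant. Over all genes 38.1% rose in WT and 47.3% in the mutant. The medians of the 14 were 1.03 in both genotypes. The kinase gene plk4 went from 7.29 and 6.37 to 28.7 and 31.5 FPKM in WT (1.99 ± 0.11, adjusted p = 1.4e-05) and from 4.57 and 4.74 to 20.2 and 19.6 in the mutant (1.89 ± 0.11, adjusted p = 1.2e-05). The scaffold gene cep63, a partner of cep152, rose by 2.02 ± 0.24 in WT, from 15.0 and 13.7 to 64.5 and 58.2 FPKM, and by 1.53 ± 0.24 in the mutant. The rises of cenpj, a centriole growth gene despite its CENP name, were 1.59 ± 0.16 and 1.49 ± 0.16, and those of cep152 were 1.59 ± 0.14 and 0.92 ± 0.14. The rises of cep120, cep135 and cep192 were between 1.15 and 1.37 in WT and between 1.14 and 1.59 in the mutant. All of these kept their call in every alternative run. Other rises in the counts did not. In WT those of cep57 and sass6 were lost under both other scalings, with cep57 at 0.18 and sass6 at 0.12 after median-of-ratios scaling. In the mutant the rises of cep57, cep57l1 and sass6 were lost under both. After median-of-ratios scaling there, cep57l1 was at -0.15 and sass6 at -0.08. The pericentrin gene pcnt rose by 1.45 ± 0.17 and 1.89 ± 0.17. The fall of cep97 in the mutant (-0.48 ± 0.14) did not pass with mutant stage II replicate 1 (adjusted p = 0.11) or mutant stage I replicate 2 (0.099) left out.

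Of 12 appendage and cilium genes, 8 (66.7%) rose in each genotype, where 38.1% of all genes rose in WT and 47.3% in the mutant. The WT count includes cep19, which passed the filter only through stage II libraries and whose call (0.99 ± 0.29) was lost without WT stage I replicate 1 (adjusted p = 0.094) or 2 (0.051) or WT stage II replicate 1 (0.099). The rises also included cep290, a transition zone gene, from 1.41 and 1.28 to 4.03 and 5.28 FPKM in WT (1.26 ± 0.16, adjusted p = 0.00034) and by 1.49 ± 0.16 in the mutant. The rises of cep83, cep128, cep131 and cep350 lay between 0.97 and 1.22 in WT and between 1.12 and 1.17 in the mutant. Each of these 4 genes kept its call in both genotypes under every alternative run. In the mutant cep89, a distal appendage gene, fell (-0.76 ± 0.25, adjusted p = 0.028), which did not pass with mutant stage I replicate 2 or mutant stage II replicate 1 left out (-0.50 and adjusted p = 0.17 in both).

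Kinetochore genes were less uniform with stage. In WT 4 of 11 inner kinetochore genes rose and 5 fell, where 38.1% of all genes rose and 22.2% fell. In the mutant 3 rose and 4 fell, where 47.3% of all genes rose and 18.7% fell. The histone-fold partners cenps and cenpx fell in both genotypes: cenps from 47.0 and 56.1 to 13.5 and 13.8 FPKM in WT (-1.84 ± 0.14, adjusted p = 3.6e-05) and by 1.48 ± 0.14 in the mutant, and cenpx by 0.86 ± 0.13 and 0.88 ± 0.13. The gene cenpt rose in both (0.91 ± 0.10 and 0.71 ± 0.10), and its partner cenpw fell in WT (-0.48 ± 0.14, adjusted p = 0.020). That call was lost with no filter on low values (adjusted p = 0.063), without WT stage I replicate 1 (adjusted p = 0.077) or 2 (adjusted p = 0.078) and without WT stage II replicate 2 (-0.32, adjusted p = 0.13). In the outer kinetochore 1 of 6 genes rose and 3 fell in WT, and 2 rose and 1 fell in the mutant, beside the same shares of all genes. The WT fall of nuf2 was lost in 6 alternatives, among them quantile normalization (-0.14, adjusted p = 0.099). That of mis12 was lost in 2, and mis12 rose in the mutant, a call lost under both other scalings. The fall of spc25 in WT was from 98.1 and 100.0 to 68.5 and 60.7 FPKM (-0.61 ± 0.11, adjusted p = 0.0016), while in the mutant it stayed at 59.5 and 48.4 against 53.8 and 55.9 (0.03 ± 0.11, adjusted p = 0.82). The gene ndc80 rose in the mutant from 44.5 and 48.3 to 93.4 and 94.5 FPKM (1.00 ± 0.07, adjusted p = 2.3e-05) and less in WT (0.34 ± 0.07), a WT call lost with median-of-ratios scaling (0.12, adjusted p = 0.16). The kinesin gene cenpe rose by 2.91 ± 0.12 in WT and 1.65 ± 0.12 in the mutant, and ska3 by 3.39 ± 0.24 and 4.30 ± 0.24 with the reservation on its filter given above.

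Spindle genes rose in WT and partly in the mutant. In WT 4 of 6 rose, where 38.1% of all genes did: dlgap5 (1.80 ± 0.13), numa1 (1.55 ± 0.16), tpx2 (1.20 ± 0.09) and ckap5 (1.01 ± 0.15). In the mutant numa1 rose by 1.94 ± 0.16, from 3.43 and 4.09 to 17.7 and 16.8 FPKM, and dlgap5 fell by 5.37 ± 0.13. A small fall of nusap1 in the mutant (-0.17 ± 0.06, adjusted p = 0.042) was lost in 6 alternatives, among them leaving out any 1 mutant library (adjusted p of 0.088 to 0.17). The mutant rises of tpx2 (0.40 ± 0.09) and ckap5 (0.58 ± 0.15) were lost with median-of-ratios scaling, where tpx2 turned to -0.03 (adjusted p = 0.80) and ckap5 was at 0.16 (adjusted p = 0.32), and that of ckap5 also without mutant stage I replicate 1 (adjusted p = 0.053). In augmin, haus6 fell by 1.69 ± 0.10 in WT and 1.76 ± 0.10 in the mutant, whereas haus5 rose from 28.3 and 28.6 to 74.0 and 80.1 FPKM in WT (1.40 ± 0.09) and by 1.11 ± 0.09 in the mutant.

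Other genes of these structures, a list of 76 that the name rule does not take, gave 66 tested genes. Of them 17 were higher and 17 lower in mutant stage I, 20 higher and 6 lower in mutant stage II, 44 rose and 8 fell with stage in WT, and 42 rose and 6 fell in the mutant. The shares that passed were 51.5, 39.4, 78.8 and 72.7%, where 45.3, 44.6, 60.3 and 66.0% of all genes did. The medians of the list were 0.06, 0.06, 0.54 and 0.59, against -0.08, 0.07, 0.15 and 0.32 over all genes. Of those with the largest differences, stil, whose product works with Plk4 and Sass6 in building the new centriole, was at 6.38 and 7.47 FPKM in WT stage II and 0.0376 and 0.0188 in mutant stage II (-2.94 ± 0.15, adjusted p = 8.5e-06). In mutant stage I stil was higher (0.55 ± 0.15, adjusted p = 0.021). The spindle pole gene aspm was lower at both stages, at 2.59 and 2.37 against 0.443 and 0.373 FPKM and at 6.68 and 6.31 against 0.667 and 0.889. The largest stage II rises of this list were those of pcm1 (2.47 ± 0.38, adjusted p = 0.0017) and kiz (1.56 ± 0.26, adjusted p = 0.0022). At stage II pcm1 was at 4.81 and 3.64 FPKM in WT and 26.8 and 28.6 in the mutant. Both genes were lower in mutant stage I, where the libraries of pcm1 were far apart (1.63 and 0.0087 FPKM). The spindle gene hmmr was higher in mutant stage I, at 16.5 and 12.7 against 37.6 and 42.8 FPKM (1.41 ± 0.13), and its effect differed between stages (-1.75 ± 0.18, adjusted p = 0.00036). The level of rae1, which binds microtubules and exports mRNA, was 142.6 and 145.6 FPKM in WT stage I against 35.1 and 34.1 (-2.03 ± 0.08), and cetn3, a centrin gene of the centriole, was at 161.3 and 160.2 against 63.9 and 50.7 (-1.48 ± 0.13). At stage II rae1 went the other way, at 69.7 and 79.3 FPKM in WT and 107.6 and 107.1 in the mutant (0.52 ± 0.08, adjusted p = 0.0012). The stage II difference of cetn3 did not pass (-0.03 ± 0.13, adjusted p = 0.87).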

How the data were processed

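RNA was measured in 8 libraries, 2 per group. Values are FPKM per gene, deposited as 1 merged table; per the submitters' processing notes the tools were Trim Galore, STAR 2.5.3a and Cufflinks 2.2.1 with build danRer11. Annotation version, strandedness and read counts are not given in the sources used here, and absolute depth is unknown. Of 32055 gene IDs in 32197 table entries, exact duplicates (24 entries) were merged and 103 IDs with conflicting entries, none of them a member by name, were left out. All per-library columns matched listed samples.

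The 13862 genes with 1 FPKM in 2 libraries were fitted in limma 3.58.1 (R 4.3.3) on log2(FPKM + 1), with 4 group means over the 8 libraries and a trended prior (4 residual and 3.78 prior degrees of freedom). The 5 comparisons were adjusted by Benjamini-Hochberg over all genes and called at 0.05. The fit was also run on simulated data in which few genes changed, all at mutant stage I. Many genes passed in every comparison of the real data, so that run does not check the calls given here. The p-values test differences of group means against the spread between the 2 libraries of a group, pooled over the 4 groups and moderated by the prior. Whether that spread includes the spread between fish is unknown.

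The members, the role groups, the list of 76 other genes and the marker lists were chosen with earlier results of these data known. Named genes were, per contrast, up to 8 highest and 8 lowest called members without overlap between groups, the 6 most abundant, members listed at 0 in a group, and core complex genes. The members cenpf, cenph, cenpn, cenpp, cenpt, cenpv, cep19, cep55l, cep83, cep85, cep120, cep128, cep131, cep290 and dsn1, the genes from the other list and the neighbours lie outside that rule or were added to complete a group, after their values were seen. The same holds for cep57, cep57l1 and cep70. Of the 70 members, 2 are in the fits and counts but are not reported singly here, are left out of the plots and do not enter the alternatives given per gene. The genes haus2, haus8, cenpa and tacc2 were not analysed here. Overlaps and neighbours were read by name from RefSeq genes of GRCz12tu, another build, so no coordinates are given.

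The fit was repeated with other pseudocounts (0.1 and 5), with no filter or a filter on a mean of 5 FPKM, after median-of-ratios scaling or quantile normalization, without a prior trend, with a replicate block, on the 4 libraries of a contrast, with conflicting IDs at their mean, and leaving out each library.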

Additional observations from a re-analysis of the deposited data

Results flagged for a closer look

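For 22 members the genotype effect differed between the stages by limma's test of the difference itself (adjusted p under 0.05), given here as the stage II effect minus the stage I effect on the log2(FPKM + 1) scale. Effects were lower at stage II for dlgap5 (-7.17), cenpo (-4.09, a size set by the pseudocount, since cenpo is listed at 0 in mutant stage II), cenpe (-1.25), ska2 (-1.07), cep78 (-1.04), cep162 (-0.90), tpx2 (-0.80), cep97 (-0.73), cep152 (-0.67), cenpl (-0.63) and cep70 (-0.44). They were higher at stage II for cep170b (0.99), cep76 (0.94), mis12 (0.92), mis18a (0.84), ndc80 (0.66), spc25 (0.64), cenpi (0.60), haus7 (0.59), cenpk (0.45) and haus4 (0.34).

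Of the 22, 14 kept this call in every alternative run. Among the others, the call was lost in several alternatives for cep70, cep152, cenpk, haus4 and cep97, under both other scalings for spc25, and without mutant stage I replicate 2 for mis18a (0.81, adjusted p = 0.052). The effect on haus4 was near equal at both stages with quantile normalization (0.06, adjusted p = 0.64). The causes of these differences were not tested.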

How the results depend on the processing

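The number of members called stayed within 1.5 times its main value under every alternative run, apart from the stage II genotype comparison without 1 library. Leaving out each library in turn gave 23 to 33 members for mutant against WT at stage I, 17 to 30 at stage II, 45 to 51 for stage in WT, 47 to 53 for stage in the mutant and 15 to 21 for the difference of the effects. Leaving out a library of the compared groups also lowered the share called over all genes. With the replicate block the counts were 37, 31, 51, 51 and 21. Correlations of replicate differences between groups ran from -0.04 to 0.06. They cannot show whether replicate numbers paired the samples, since the fish behind each library are not given in the sources used here. The fit on only the 4 libraries of a contrast was not run for the difference of the effects, which needs all 8.

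Over 184 pairs of a called member and a comparison, 3266 alternative values were computed: 2992 kept direction and call, 268 kept direction but lost the call, and 6 turned direction. Calls held throughout for 119 pairs. All 6 turns were in stage II against stage I in the mutant. With quantile normalization cep70 went to -0.0874. With median-of-ratios scaling cep57l1 went to -0.146, sass6 to -0.0797, haus1 to -0.0621, cep70 to -0.0421 and tpx2 to -0.0320. These scalings take the all-gene median of that comparison from 0.32 to 0.06 and -0.02. Which scaling is closer to RNA per oocyte was not tested, and without counts the precision of low genes such as cep19 and cenpv is unknown.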

Other observations

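Genes given here as next to a member are the nearest tested, non-overlapping genes with a single gene ID, in the gene order of GRCz12tu. Untested genes in between were passed over, so these neighbours need not be adjacent. They were looked up after the members' values were seen, also for haus6, haus4, cep76 and spc24, whose neighbours are not described here. The ska3 neighbours cox17 and sap18 were also low at stage I, at 0.318 to 1.58 and 0.202 to 0.494 FPKM, and higher at stage II. At stage II cox17 was at 49.9 and 64.2 FPKM in WT and 91.9 and 106.0 in the mutant, and sap18 was at 18.0 and 26.3 against 55.3 and 57.4. This genotype difference passed for sap18 (1.33 ± 0.18, adjusted p = 0.00096) but not for cox17 (0.79 ± 0.29, adjusted p = 0.056). All 3 genes had stage II libraries above all stage I libraries, which the filter partly fixed. Both ska3 and sap18 passed it only through stage II libraries, and cox17 reached 1 FPKM at stage I in mutant replicate 1 alone. Over all genes, libraries of the 2 stages did not overlap, in either direction, for 79.2% in WT and 83.4% in the mutant.

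Next to dlgap5, pms2 was higher in mutant stage I (0.60 ± 0.14, adjusted p = 0.0092) and lower in mutant stage II (-0.94 ± 0.14, adjusted p = 0.0013), with 13.9 and 14.3 FPKM left in mutant stage II. On the other side ccz1 was also higher in mutant stage I (0.37 ± 0.10, adjusted p = 0.019) but did not pass at stage II (-0.02 ± 0.10, adjusted p = 0.91). Next to ndc80, tut1 was lower in mutant stage I (-0.86 ± 0.09, adjusted p = 0.00028) and higher in mutant stage II (0.64 ± 0.09, adjusted p = 0.0013), while mki67 on the other side was higher in the mutant at both stages (0.90 ± 0.13, adjusted p = 0.0010, and 0.46 ± 0.13, adjusted p = 0.022). Next to cenpo, neither dnajc5gb (0.11 ± 0.25, adjusted p = 0.76) nor smc6 (-0.01 ± 0.29, adjusted p = 0.99) passed at stage II. At stage I smc6 was higher in the mutant (1.23 ± 0.29, adjusted p = 0.011) and dnajc5gb did not pass (adjusted p = 0.19). Whether neighbours share a cause was not tested.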
